A study of Mus musculus with 15 samples.

Results

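Cultured cortical neurons were compared after 15 h and after 5 h of continuous exposure to kainate, an agonist of AMPA and kainate receptors, which are glutamate-gated channels. The comparison set the 3 arrays labelled KA-15h against the 3 arrays labelled KA-5h, 6 of the 15 arrays of a series on kainate-induced neuronal death. Each 15 h array was paired with the 5 h array on the same beadchip, and every probe with a deposited signal was considered. The question was which genes turned over, faded or started late between the 2 times.

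The cells were primary cortical neurons of Swiss Albino mice, taken at gestation day 15 to 16 and treated on culture day 5. The 15 h and 5 h groups both received 100 µM kainate, dissolved in sodium hydroxide and diluted into NeuroBasal medium. A 24 h group of 3 arrays had the same dose. The 6 vehicle control arrays, labelled with no agent and a time of 0, were shared with an AMPA experiment according to their titles. No label matches them to the hours of treatment, so time in culture and time in kainate cannot be told apart. Nothing in the labels says that replicates came from separate cultures, so the p-values speak for the scatter among these arrays, which may be technical.

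Kainate receptors and AMPA receptors let sodium and often calcium into the neuron, and sustained opening is toxic, a process known as excitotoxicity. Calcium entry first switches on immediate early genes, which need no new protein and encode transcription factors such as Fos, Egr and Npas4. Their products then act on later genes, among them synaptic, growth factor and stress genes. Cortical cultures prepared at this age can also hold glial cells and their progenitors.

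Signals were means over a median of 34 to 35 beads per target, and 49.5 to 55.2% of targets were detected per array. After background correction and quantile normalisation on the log2 scale, 14154 probes detected on at least 3 arrays were tested, covering 9824 named genes. Array correlations were 0.9952 to 0.9957 within the 15 h group and 0.9941 to 0.9958 within the 5 h group, against 0.9734 to 0.9785 between them. Control replicates 1 and 3 stood apart, correlating at 0.9780 to 0.9882 with the other 4 controls, which correlated at 0.9894 to 0.9957 among themselves. Those 2 controls and the 3 arrays at 5 h shared a further mark, since 1 bright target had a detection p above 0 on these 5 arrays and on none of the other 10. A second fit carried the 5 arrays as a block. In it the 5 h level rests on control replicates 1 and 3, and its values are given as "with the 5-array block" where they end a call, turn a direction or move a value by over 1.5 times. Each kainate group also held 1 fixed position on the beadchips (position F at 15 h, D at 5 h). The controls held positions A (replicates 1, 3 and 5) and B (replicates 2, 4 and 6). Position and treatment therefore cannot be told apart.

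Of the 14154 probes, 2480 were higher at 15 h than at 5 h (17.5%) and 2358 were lower (16.7%), so 34.2% passed limma's test at an adjusted p below 0.05. These calls covered 3877 genes. The median size of a called difference was 0.57 on the log2 scale, 1156 called probes were at least 1.5-fold higher (8.17%) and 1186 at least 1.5-fold lower (8.38%). On all 3 beadchips 99.8% of the called probes moved the same way, against 55.9% of the probes not called. The calls were made from these same differences, so this is not a separate check. With the 5-array block 2460 probes were higher and 2286 lower, and 3144 of the 4838 calls were made again in the same direction and 1 in the opposite one. Median centring in place of quantile normalisation moved the median of all probes to -0.11 and the calls to 1206 higher and 3342 lower, and the authors' deposited ratios gave 1398 higher and 3396 lower. In comparison with vehicle, 6554 probes passed at 15 h (46.3%) and 5680 at 5 h (40.1%). These comparisons share the control arrays, and the differences from vehicle are given below as values.

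The called probes were sorted by where each time stood against vehicle. In the fading groups, 686 probes were raised at 5 h and lower at 15 h (4.85% of those tested), and 794 were reduced at 5 h and higher at 15 h (5.61%). Turnover across the vehicle level covered fewer probes: 158 were above vehicle at 5 h and below it at 15 h (1.12%), and 148 went the opposite way (1.05%). Late starts covered 957 probes raised (6.76%) and 996 reduced (7.04%) against vehicle at 15 h that had not passed at 5 h. Another 411 kept rising (2.9%), 308 kept falling (2.18%) and 380 called probes fell in none of these groups. The groups are a sorting of 3 comparisons that share arrays, not a test of their own. With the 5-array block the turnover groups held 311 and 278 probes and the probes that kept falling numbered 188.

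**Figure D1:**
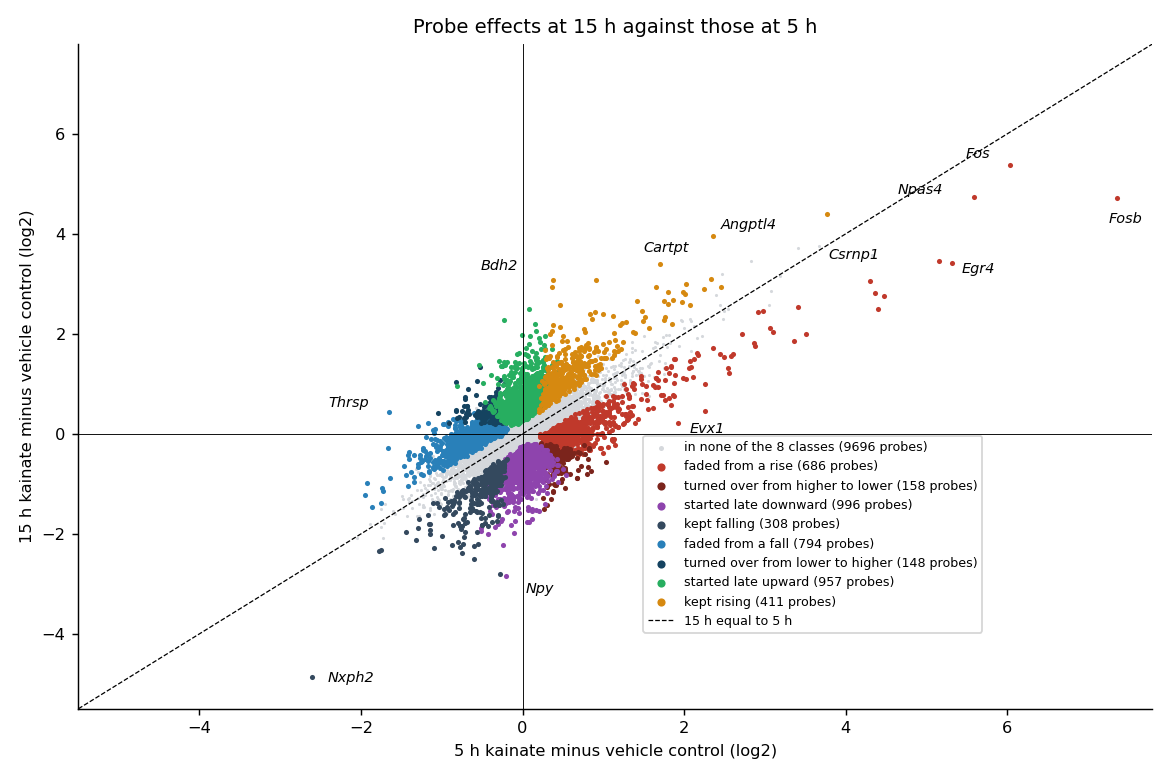
Each point is a probe, with its 15 h minus vehicle difference (log2, vertical axis) against its 5 h minus vehicle difference (log2, horizontal axis). Colours mark the 8 groups, from the 686 probes that faded from a rise to the 308 that kept falling, and grey marks the probes in none of them. Fading probes lie between the dashed diagonal (15 h equal to 5 h) and a 15 h difference of 0 or just past it, and late ones lie around a 5 h difference of 0.

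**Figure D2:**
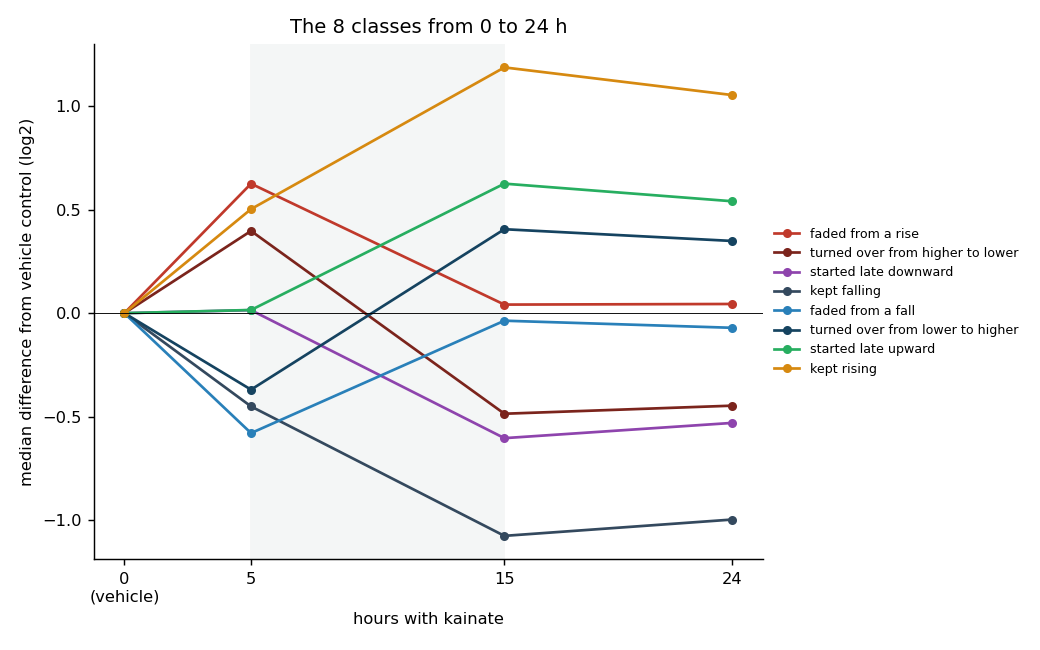
Each line is the median difference from vehicle (log2) of one of the 8 groups of probes at 0, 5, 15 and 24 h. The group that faded from a rise had medians of 0.62 at 5 h, 0.04 at 15 h and 0.04 at 24 h, and the late upward group 0.02, 0.63 and 0.54.

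Between 24 h and 15 h 65 probes passed (0.459%), 19 higher and 46 lower at 24 h. Of the 957 late upward probes 770 were also above vehicle at 24 h, and of the 996 late downward probes 795 were also below it. Over all probes tested 21.6% were above vehicle at 24 h and 22.4% below it. Among the probes that turned over, 120 of the 158 that ended low and 94 of the 148 that ended high kept that side at 24 h. The 15 h and 24 h differences subtract the same control arrays, and these probes were picked by the 15 h difference. Part of this agreement is therefore built in.

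Immediate early transcription factors held the deepest fall of the comparison, yet most were still above vehicle at 15 h. Of 35 listed genes 28 were tested: 12 fell between 5 h and 15 h, 5 rose and 11 did not pass, beside 17% of all genes lower and 19.9% higher (36.9% called, 1 probe a gene). The median difference was -0.22, against 0.03 over all genes. In comparison with vehicle 26 of the 28 were higher at 15 h and 24 at 5 h, with median differences of 1.5 and 2.12. Among all probes tested 22.3% were above vehicle at 15 h and 18.8% at 5 h. The other 7 listed genes (Fosl1, Nr4a1, Ier2, Ier5, Mafk, Btg2 and Nfil3) had no tested probe.

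Fosb, a Fos family subunit of the AP-1 factor, fell most of the 12. Its log2 signals were 9.39, 9.22 and 9.29 at 15 h, against 12.01, 11.89 and 11.95 at 5 h, a difference of -2.65 ± 0.21 (SE; adjusted p = 1.1e-06) or 6.27-fold. The groups did not overlap, and both stood far above the controls, which averaged 4.59 ± 0.43 (SD, n = 6) and detected it on 2 of 6 arrays. The Fosb difference was -1.88 with the 5-array block. Junb, a Jun family subunit of the same factor, had 8.60, 8.80 and 8.94 at 15 h, against 10.40, 10.38 and 10.69 at 5 h (-1.71 ± 0.18, adjusted p = 1.2e-05). Egr4, a zinc finger factor, had 10.22, 10.06 and 9.91 at 15 h, against 12.06, 11.98 and 11.86 at 5 h, a difference of -1.90 ± 0.33 that shrank to -0.66 with the 5-array block. Its 6 control values spread widely (6.65 ± 0.73), with replicates 1 and 3 higher than the other 4 by 1.32 on average. Klf4, a Krüppel-like factor, fell by 1.54 on the log2 scale, and both further Klf4 probes fell too. It was not well above background on any control array.

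Smaller falls touched factors that were still above vehicle at 15 h. Npas4, a factor restricted largely to neurons and driven by calcium, had 10.16, 9.95 and 10.11 at 15 h, against 11.03, 10.86 and 10.87 at 5 h (-0.85 ± 0.10, adjusted p = 3.1e-05), while the controls averaged 5.33 ± 0.05. Egr2 differed by -1.25 ± 0.17, the small Maf protein Maff by -1.04 ± 0.08, the stress factor Atf3 by -1.02 ± 0.18 and the serum response factor Srf by -0.39 ± 0.09. Egr1 differed by -0.62 ± 0.18 and by -1.24 with the block. The calls of Cebpb and Fos depend on the block: Cebpb had -0.97 ± 0.22 without it and -0.20 with it (adjusted p = 0.4), and Fos had -0.66 ± 0.20 without it and -0.12 with it (adjusted p = 0.7). Fos itself was bright at both times, with 12.38, 12.26 and 12.38 at 15 h, against 13.11, 12.96 and 12.93 at 5 h, and 6.96 ± 0.45 in the controls.

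Other immediate early genes did not follow this course. Csrnp1, a nuclear protein induced by axin, was 3.75 above vehicle at 15 h and 3.67 at 5 h, with 9.35, 9.36 and 9.24 at 15 h, against 9.19, 9.27 and 9.24 at 5 h. The difference of 0.08 ± 0.14 did not pass (adjusted p = 0.69) and the groups overlap. Jun (-0.04 ± 0.11), the clock gene Per1 (-0.03 ± 0.12) and the orphan nuclear receptor gene Nr4a3 (-0.03 ± 0.21) did not pass either, with 15 h levels 1.34, 2.46 and 2.51 above vehicle. With the 5-array block Csrnp1 was higher by 0.47 (adjusted p = 0.04) and Nr4a3 differed by -0.78 (adjusted p = 0.003). The other 7 that did not pass were Fosl2 and Jund (-0.17 and -0.51), Crem and Egr3 (-0.18 and -0.08), Klf2 and Bhlhe40 (0.34 and 0.17) and Klf10, which was not well above background at 15 h. Crem, a factor related to CREB, and Klf2 passed with the block, at 0.77 (adjusted p = 0.0016) and 0.75 (adjusted p = 0.008). Nr4a2, a nuclear receptor of the same family, rose by 0.49 ± 0.14. Ier3, an early gene tied to survival signalling, started late: it had 8.65, 8.71 and 8.73 at 15 h, against 7.62, 7.66 and 7.77 at 5 h (1.02 ± 0.08, adjusted p = 1.7e-06), and 5 h lay -0.13 from vehicle. Klf6, Cebpd and Per2 rose by 0.59, 0.57 and 0.35. After median centring Nr4a2, Klf6, Cebpd and Per2 did not pass and 14 of the 28 fell. Neither Klf6 (0.02) nor Per2 (0.24) passed with the 5-array block. The calls of Fos, Egr1, Nr4a2, Klf6 and Per2 were also lost when some single arrays were left out, and the differences then ranged from -0.81 to -0.54 for Fos, -0.69 to -0.54 for Egr1, 0.41 to 0.64 for Nr4a2, 0.53 to 0.63 for Klf6 and 0.32 to 0.39 for Per2.

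**Figure D3:**
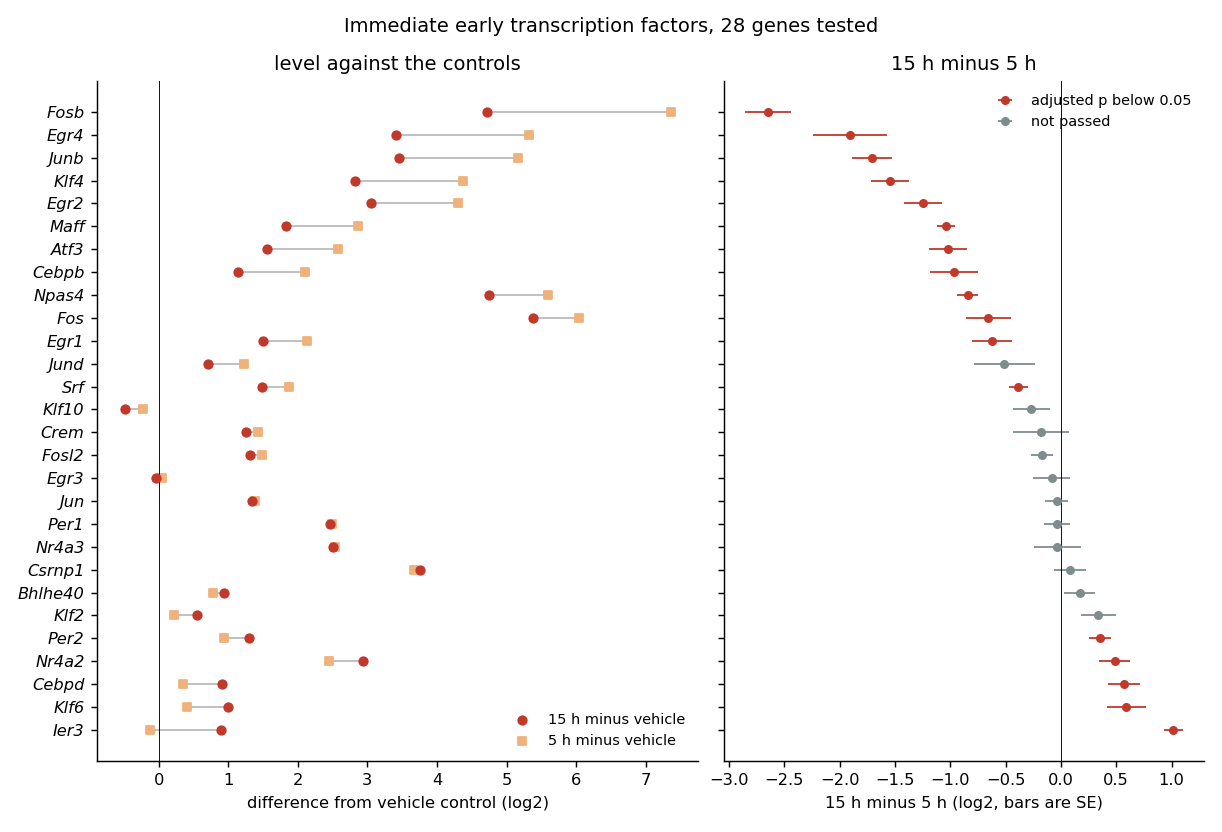
The left panel gives the difference from vehicle (log2) at 15 h and at 5 h for the 28 tested immediate early transcription factors, and the right panel gives 15 h minus 5 h with its SE as bars. Fosb lies lowest at -2.65 and Ier3 highest at 1.02 in the right panel.

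The promoter of Fosb, the gene that fell most, and that of Npas4 are shown because cyclic AMP response elements, the sites of the calcium-driven factor CREB, are a known feature of activity genes. Both windows run from 250 bases before to 50 after the RefSeq start in build GRCm38.p6, Fosb at chr7:19309996-19310295 and Npas4 at chr19:4989922-4990221, both on the minus strand. Capitals mark TGACG, the core of that element, on either strand, with 1 match in Fosb and 2 in Npas4.
Fosb: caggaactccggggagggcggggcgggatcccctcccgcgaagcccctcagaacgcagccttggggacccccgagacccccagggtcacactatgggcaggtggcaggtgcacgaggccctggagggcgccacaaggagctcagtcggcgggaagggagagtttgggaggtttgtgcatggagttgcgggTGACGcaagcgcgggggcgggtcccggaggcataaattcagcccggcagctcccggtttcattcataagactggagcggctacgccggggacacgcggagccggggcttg
Npas4: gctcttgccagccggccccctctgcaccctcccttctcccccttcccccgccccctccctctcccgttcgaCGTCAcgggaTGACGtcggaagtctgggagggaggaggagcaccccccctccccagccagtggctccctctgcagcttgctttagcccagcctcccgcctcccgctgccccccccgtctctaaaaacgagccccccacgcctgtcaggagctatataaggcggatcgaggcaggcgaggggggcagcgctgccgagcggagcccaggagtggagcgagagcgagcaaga

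Over all windows of this length that matched a gene with a tested probe, 31.1% held TGACG (2480 of 7963). The share was 45.3% among genes that faded from a rise (182 of 402), 36.1% among those that faded from a fall and 28.4% among those that started late upward. In the list of immediate early factors 14 of 21 windows held it (66.7%), beside 46.7% in the cholesterol list and 43.6% in the cell cycle list. The whole cyclic AMP response element stood in 0 of the 21 windows of the immediate early list and in 3.16% of all windows. Median GC content was 63.3% in windows of genes that faded from a rise and 60.7% in all of them, and its part in the difference was not tested. The AP-1 site TGANTCA was found in 3.73% of the fading genes' windows and in 5.02% of all. These counts describe letters in a window, not binding. In all 13 patterns were searched on both strands. They were TGACG and the whole cyclic AMP response element that contains it, the AP-1 site TGANTCA, the NF-Y box CCAAT, the E-box CACGTG, the TATA box TATAAA, and the sterol, antioxidant, interferon-stimulated and serum response elements. The others were the E2F and STAT sites and the lysosomal CLEAR site, which contains CACGTG.

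Among activity-regulated effectors, genes whose products act at synapses or in growth control, 18 of 26 were tested, with 5 higher, 4 lower and a median of 0.13 that was -0.05 after median centring. Arc, which removes AMPA receptors from synapses, had 7.53, 7.55 and 7.53 at 15 h, against 9.10, 9.16 and 8.88 at 5 h (-1.51 ± 0.14, adjusted p = 4e-06). Its controls averaged 5.54 ± 0.21, so the 15 h arrays lay between vehicle and 5 h. Sik1, a kinase that restrains CREB coactivators, also fell (-0.62 ± 0.13). Gadd45g, a growth arrest and stress gene, kept rising instead, with 11.96, 11.93 and 12.15 at 15 h, against 11.25, 11.28 and 11.61 at 5 h (0.63 ± 0.17), or 1.15 with the 5-array block and 0.29 after median centring, where it did not pass. Cdkn1a, the cell cycle inhibitor p21, rose by 0.86 ± 0.22 and by 0.47 with the 5-array block (adjusted p = 0.3).

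Of 24 tested feedback inhibitors of signalling 7 fell and 3 rose, against 6 and 5 with the 5-array block and 9 and 0 both after median centring and with the ratios. Without the block 17% of all genes were lower and 19.9% higher. List counts here and below stand beside these shares, and a count near them says little about its list. Dusp16, a MAP kinase phosphatase, fell by 0.63 on the log2 scale and Errfi1, an inhibitor of the EGF receptor, by 0.58. Dusp14, another phosphatase, differed by -0.74, by -0.09 with the 5-array block, and lost its call without 15 h replicate 2 (-0.61). Socs2, a cytokine signalling inhibitor, was already below vehicle at 5 h and fell further (-0.95 ± 0.16, or -1.50 with the block). Of 20 tested ligands 6 rose and 5 fell. Insulin-like growth factor 1 (Igf1) rose 2.16-fold, with 6.19, 6.29 and 6.21 at 15 h, against 4.90, 5.36 and 5.11 at 5 h, and the macrophage growth factor Csf1 rose 2-fold. Both were late, at -0.09 and -0.07 from vehicle at 5 h. Tgfb3 and Tgfb2, transforming growth factors, rose by 0.89 and 0.76.

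Other transient genes came back close to vehicle. Evx1, a homeobox factor, was detected on none of the arrays at 15 h, on all 3 at 5 h and on none of the controls. Its signals were 4.56, 4.45 and 4.50 at 15 h, against 6.19, 6.13 and 6.31 at 5 h, which makes it at least 2.81-fold lower at 15 h (adjusted p = 1.3e-07). Gla, a lysosomal galactosidase, had 5.15, 4.87 and 4.81 at 15 h, against 6.87, 6.52 and 6.81 at 5 h (-1.79 ± 0.14). Ccno, an atypical cyclin, faded only in part: 8.64, 8.89 and 8.90 at 15 h, against 10.46, 10.58 and 10.53 at 5 h, with controls at 6.05 ± 0.31. Of the 686 probes in this pattern 169 were still above vehicle at 15 h and 517 did not pass there. Among all probes tested 22.3% were above vehicle at 15 h.

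The opposite pattern was a fall at 5 h that faded. Thrsp, a regulator of fat synthesis, was 0.44 above vehicle at 15 h, where it did not pass, and 1.65 below it at 5 h. It had 7.90, 7.92 and 8.08 at 15 h, against 5.95, 5.78 and 5.88 at 5 h (2.10 ± 0.22, adjusted p = 1.4e-05), with 1.29 under the 5-array block. Gpr17, a receptor of oligodendrocyte precursors, had 7.10, 7.10 and 7.24 at 15 h, against 6.30, 6.14 and 6.22 at 5 h (0.93 ± 0.12). It was 0.99 below vehicle at 15 h and back at 8.11 on average at 24 h, beside 8.14 in the controls. Lims2, a focal adhesion adaptor, Tcaf1, a regulator of TRP channels, and Tmem214, a membrane protein, rose by 1.39, 1.46 and 1.18.

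Among genes that turned over from above to below vehicle were several of the cytoskeleton. Crmp1, a collapsin response mediator in growing axons, had 11.36, 11.46 and 11.55 at 15 h, against 13.06, 13.14 and 13.13 at 5 h (-1.65 ± 0.09, adjusted p = 1.2e-07), around a control mean of 12.76 ± 0.08. The α-tubulin genes Tuba3a and Tuba1a differed by -1.72 ± 0.13 and -1.62 ± 0.22 between the times, and their 5 h levels were 0.31 and 0.53 above vehicle. Tafa1, a secreted neuronal protein, differed by -1.76 ± 0.11 and was detected on 1 of 3 arrays at 15 h. Klf16, a Krüppel-like factor, had 6.92, 6.91 and 6.95 at 15 h, against 8.56, 8.53 and 8.46 at 5 h, with a control mean of 7.48. Sncb, the β-synuclein gene, differed by -1.31 ± 0.16 and Olfm2, a secreted olfactomedin, by -1.59 ± 0.25. In a list of 33 tested genes of the neuronal cytoskeleton and axon growth, with Crmp1 and Tuba1a among them, 17 fell and 2 rose, and the median was -0.37, or -0.75 with 23 lower under the 5-array block. The microtubule-binding stathmin Stmn1 fell late (-1.48 ± 0.18), and so did the tubulins Tubb4a (-1.18) and Tubb3 (-1.01).

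Turnover from below to above vehicle included genes known from immune cells and from matrix breakdown. Laptm5, a lysosomal membrane protein of blood-derived cells, had 8.85, 8.91 and 8.84 at 15 h, against 6.88, 7.03 and 7.09 at 5 h (1.86 ± 0.19, adjusted p = 9.6e-06), around a control mean of 7.83 ± 0.08. Tap2, which moves peptides to MHC class I, had 7.76, 7.76 and 7.61 at 15 h, against 5.91, 5.59 and 6.07 at 5 h (1.85 ± 0.14). The membrane protease Mmp14 rose by 1.62 ± 0.09, the lipid phosphatase Plpp3 by 1.62 ± 0.14 and the glycoprotein Gpnmb by 1.58 ± 0.13. All 5 lay above vehicle at 15 h, from 0.90 for Gpnmb to 1.36 for Mmp14, and below it at 5 h.

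**Figure D4:**
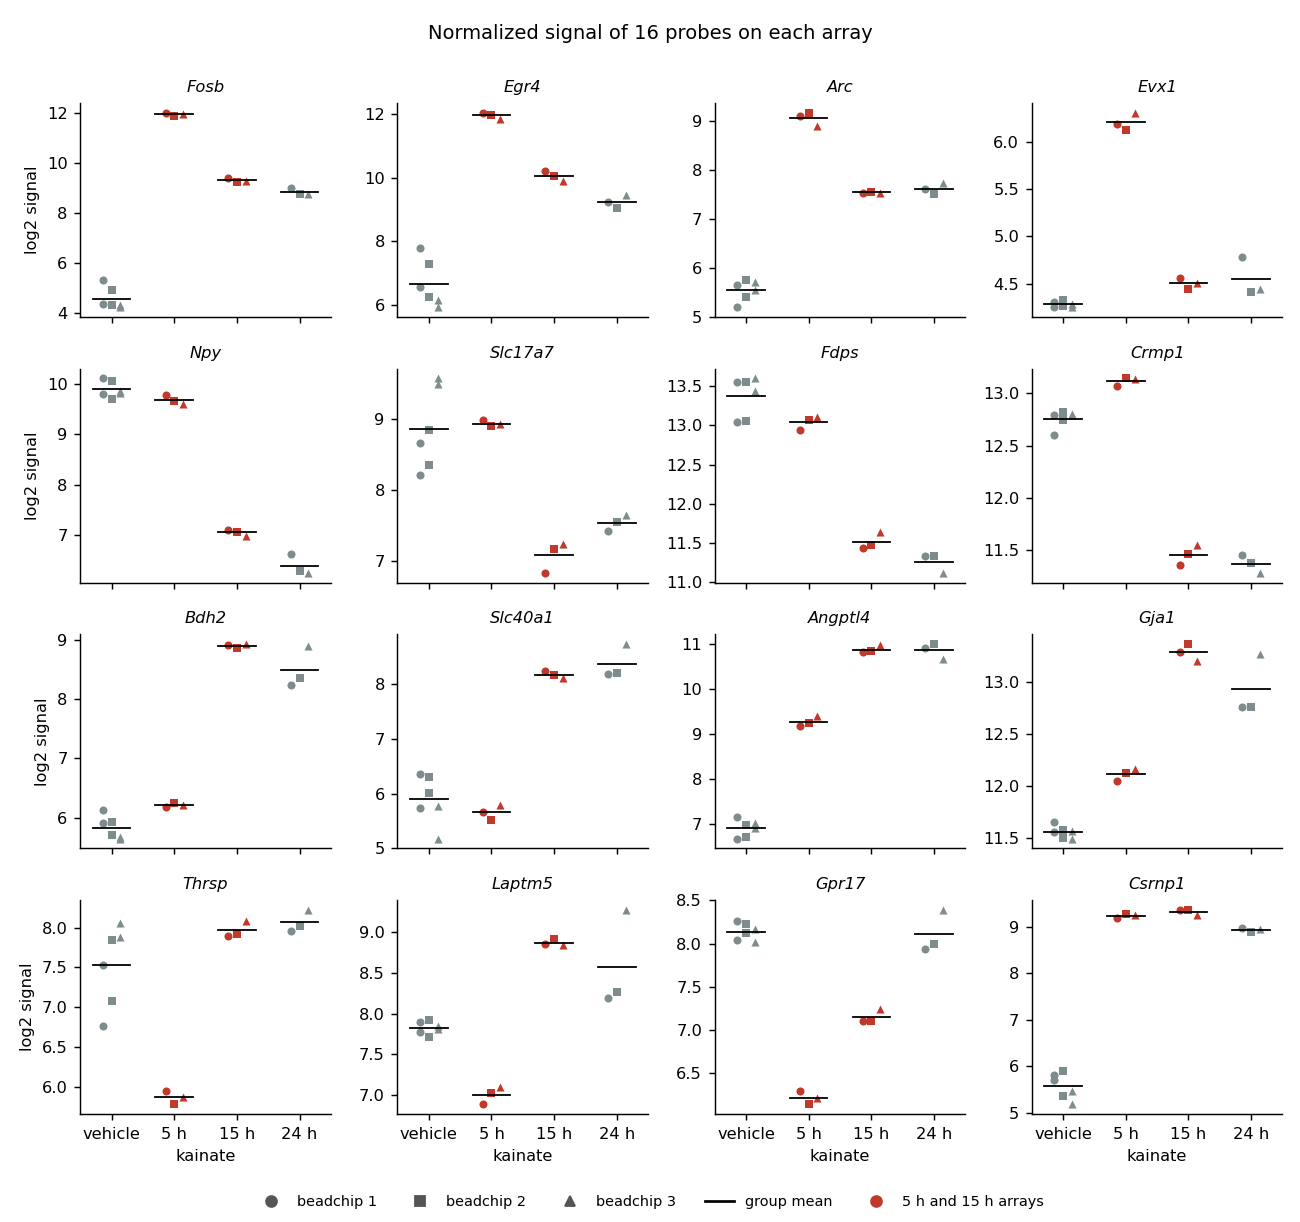
Each panel gives the log2 signal of every array for 1 of 16 genes at vehicle, 5, 15 and 24 h, with marker shapes for the 3 beadchips and a line at each group mean. Axes differ between panels. Fosb, Egr4, Arc and Evx1 drop between 5 h and 15 h, Bdh2 and Slc40a1 climb, Laptm5 crosses the vehicle level, and the Csrnp1 arrays of both times overlap.

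Neuropeptide and synaptic genes were among the deepest falls, and not all of these started late. Npy, the neuropeptide Y gene of a class of inhibitory neurons, had 7.11, 7.06 and 6.98 at 15 h, against 9.77, 9.66 and 9.61 at 5 h (-2.63 ± 0.11, adjusted p = 1.1e-08), a 6.19-fold difference. At 5 h it was -0.21 from vehicle and did not pass, and by 24 h its mean was 6.38. Neurotensin (Nts) fell late too (-1.69 ± 0.11), as did the granule protein Pcsk1n (-1.09 ± 0.16). Cartpt, another peptide gene, kept rising, with 10.20, 10.38 and 10.29 at 15 h, against 8.59, 8.60 and 8.60 at 5 h. Its difference was 1.69 ± 0.28, or 2.80 with the 5-array block, and its controls spread by 0.62 (SD). Of 18 tested peptide and granule genes 7 fell and 3 rose, with a median of -0.07 that turned to 0.21 with the block.

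Synaptic genes fell on both sides of the synapse. Of 28 tested presynaptic genes 9 fell and 0 rose (17% and 19.9% over all genes). Their median was -0.25, or -0.57 with 15 lower under the 5-array block. Slc17a7, the vesicular glutamate transporter VGLUT1, had 6.84, 7.17 and 7.25 at 15 h, against 8.98, 8.90 and 8.92 at 5 h (-1.85 ± 0.22, adjusted p = 4e-05). The vesicle proteins Doc2b and Rph3a differed by -1.64 ± 0.17 and -1.49 ± 0.19. Of 29 tested postsynaptic genes 13 fell and 3 rose, with a median of -0.42, or -0.68 with the block. Nxph2, which encodes a ligand of neurexins, had 4.53, 4.90 and 4.54 at 15 h, against 6.78, 6.93 and 7.04 at 5 h, on the way from a control mean of 9.52, and was detected on 1 of 3 arrays at 15 h. Cbln1, a synapse organiser that also binds neurexins, had 8.59, 8.71 and 8.65 at 15 h, against 10.61, 10.57 and 10.50 at 5 h (-1.91 ± 0.12). At 5 h Cbln1 was already -0.60 from vehicle, so it kept falling. The scaffold Lin7b fell by 1.64 and the calmodulin-binding Nrgn by 1.21.

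Glutamate receptor genes moved less. Of 14 tested 0 rose and 3 fell (19.9% and 17% over all genes). Their median was -0.03, or -0.38 with 6 lower under the 5-array block. The kainate receptor subunit Grik1 had 5.84, 5.82 and 5.70 at 15 h, against 6.31, 6.42 and 6.58 at 5 h (-0.65 ± 0.19, or -1.28 with the block), with a control mean of 7.60. Its auxiliary subunit Neto1 differed by -0.83, or -1.46 with the block, and Cacng8, an AMPA receptor partner, was not well above background at 15 h and at least 1.13-fold lower. Each of the 3 calls was lost when some single arrays were left out, with differences of -0.74 to -0.51 for Grik1, -0.97 to -0.69 for Neto1 and -0.63 to -0.45 for Cacng8. Among 12 tested genes of inhibitory neurons 3 fell and 2 rose (17% and 19.9% over all genes). They were led by Gabra3, a GABA receptor subunit, at -0.88 ± 0.16, the calcium buffer Calb2 at -0.62 ± 0.10 and Dlx2, a factor of inhibitory neurons, at 1.0 ± 0.13. The GABA transporter of vesicles, Slc32a1, was mostly reduced by 5 h (-1.05 from vehicle) and differed by -0.32 ± 0.10 thereafter, a call lost with the block and when some single arrays were left out (-0.35 to -0.26).

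Of 24 tested calcium genes 9 fell and 1 rose, with a median of -0.25, or -0.47 with 13 lower under the block. Hpca, the calcium sensor hippocalcin, had 8.22, 8.32 and 8.47 at 15 h, against 9.61, 9.91 and 10.07 at 5 h (-1.53 ± 0.10). The calmodulin gene Calm2, the kinase Camkk2 and the calcineurin subunit Ppp3ca differed by -1.36, -1.01 and -1.04, and Camkk2 by -1.75 with the block. Of 36 tested voltage-gated channel genes 11 fell and 7 rose (17% and 19.9% over all genes). Their median was -0.07, or -0.50 with 16 lower under the block. The potassium channel subunit Kcnab1 and the pacemaker channel Hcn3 differed by -1.15 and -1.06, or -1.76 and -1.61 with the block. The sodium channel Scn1a rose by 1.34 ± 0.21, or 0.69 with the block. Cacna2d1, a calcium channel subunit, rose by 1.17 ± 0.25, a call lost with the block (0.75).

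The list with the lowest median was cholesterol synthesis, the pathway that builds sterols from acetate through mevalonate and squalene. Of 19 tested genes 11 fell and 0 rose (17% and 19.9% over all genes), and the median was -1.13. In this list 12 lay below vehicle at 15 h and 5 at 5 h, beside 24% and 21.3% of all probes tested. With the 5-array block 15 fell and the median was -1.78, and in median-centred data the direction was the same. Fdps, which makes farnesyl diphosphate, had 11.43, 11.47 and 11.64 at 15 h, against 12.94, 13.07 and 13.11 at 5 h (-1.53 ± 0.15, adjusted p = 8.6e-06). Mvk, the mevalonate kinase, had 5.86, 5.78 and 5.85 at 15 h, against 7.06, 7.13 and 7.41 at 5 h (-1.37 ± 0.17). Mvd, the next decarboxylase, differed by -1.48 ± 0.31 and by -2.69 with the block, and its controls spread by 0.66 (SD). Tm7sf2, a sterol reductase, turned over, lying 1.28 below vehicle at 15 h and 0.25 above it at 5 h.

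The Mvk promoter is shown because CCAAT boxes, sites of the factor NF-Y, are a known partner of sterol control. The window lies on the plus strand at chr5:114444019-114444318 in GRCm38.p6, and capitals mark CCAAT on either strand, 5 matches in all. Of the cholesterol genes with a window 14 of 15 held CCAAT (93.3%), beside 38.7% of all windows of genes tested (3083 of 7963). The cell cycle list held it in 61.5% of windows and the genes that started late downward in 35.4%. The sterol response element itself stood in 1 of the 15 cholesterol windows (6.67%), beside 1.13% of all.
Mvk: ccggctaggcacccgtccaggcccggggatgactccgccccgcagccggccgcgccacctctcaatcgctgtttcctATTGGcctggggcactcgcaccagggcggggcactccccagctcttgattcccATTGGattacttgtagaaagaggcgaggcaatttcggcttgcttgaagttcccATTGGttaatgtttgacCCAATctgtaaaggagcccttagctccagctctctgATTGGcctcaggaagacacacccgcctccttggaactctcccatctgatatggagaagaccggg

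Fat synthesis genes were mixed and fat oxidation genes rose. Of 14 tested fat synthesis genes 5 fell and 2 rose with a median of -0.23, or -0.69 with 8 lower under the block. Acss2, which makes acetyl-CoA from acetate, had 9.28, 9.12 and 9.30 at 15 h, against 10.84, 10.83 and 10.89 at 5 h (-1.62 ± 0.11, adjusted p = 3e-07). Elovl6 and Acly, which lengthen fatty acids and supply acetyl-CoA, fell late by 0.95 and 0.68, and by 1.94 and 1.54 with the 5-array block. The Acly call was lost in each of the 6 fits that left out 1 array (-0.73 to -0.60) and the Elovl6 call without 5 h replicate 1 (-0.88). Acly controls spread by 0.45 (SD), beside 0.004 at 15 h and 0.04 at 5 h. Of 19 tested genes of lipid oxidation and PPAR targets 13 rose and 1 fell, against 10 and 2 with the 5-array block, and the median was 0.68. Angptl4, a lipase inhibitor and PPAR target, had 10.81, 10.83 and 10.96 at 15 h, against 9.18, 9.25 and 9.39 at 5 h (1.6 ± 0.13), with a control mean of 6.92 ± 0.18. Acadvl, which opens mitochondrial oxidation of very long fatty acids, had 10.66, 10.53 and 10.69 at 15 h, against 9.27, 9.17 and 9.25 at 5 h (1.40 ± 0.13), where it was 0.02 from vehicle. Pdk4, a kinase that inhibits pyruvate dehydrogenase, rose by 1.24 ± 0.13. The fatty acid carrier Fabp5 was the 1 that fell without the block (-0.94 ± 0.17). Of 17 tested glycolysis genes 8 fell and 2 rose (17% and 19.9% over all genes). Hexokinase Hk1, the phosphofructokinase Pfkl and lactate dehydrogenase Ldha differed by -0.88, -0.71 and -0.66. Pfkp, another phosphofructokinase, turned over upward (1.17 ± 0.16). With the block Pfkl, Ldha and Pfkp differed by -1.18, -1.13 and 0.75.

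Among the genes that rose most were several that started late or kept rising. Bdh2, a short-chain dehydrogenase, had 8.92, 8.86 and 8.93 at 15 h, against 6.18, 6.24 and 6.21 at 5 h (2.69 ± 0.16, adjusted p = 1.6e-07), a 6.45-fold difference. Slc40a1, the iron exporter ferroportin, had 8.25, 8.16 and 8.11 at 15 h, against 5.67, 5.52 and 5.79 at 5 h (2.51 ± 0.25). Fcgrt, the neonatal Fc receptor, rose by 2.41 ± 0.15, Rnase1, a secreted ribonuclease, by 2.11 ± 0.16 and Slc24a4, a sodium-calcium exchanger, by 2.03 ± 0.16. Rnase1 was detected on none of the 6 controls and Slc24a4 on 1. Omg, a myelin glycoprotein that stops neurite growth, had 11.23, 11.22 and 11.31 at 15 h, against 9.20, 9.35 and 9.25 at 5 h (1.99 ± 0.21). Plin4, a coat protein of lipid droplets, was detected on all 3 arrays at 15 h and on none at 5 h or in the controls, and was at least 3.05-fold higher at 15 h. Cyba, a subunit of the NADPH oxidase, and Retsat, a retinol saturase, rose by 1.89 and 1.92, and a further Retsat probe did not pass. Dennd2c, Sned1 and Wls, a carrier of Wnt ligands, rose by 1.81, 1.74 and 1.72, and Sned1 by 0.92 with the 5-array block. At the other end Lor, known as a protein of the skin barrier, differed by -2.53 ± 0.09, with 7.14, 7.01 and 7.08 at 15 h, against 9.69, 9.54 and 9.60 at 5 h. The aldo-keto reductase Akr1c19, the G protein subunit Gng13 and the ephrin receptor Epha8 fell by 1.82, 1.82 and 1.74.

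Markers of cell types moved with these groups. Of 13 tested neuron markers 7 fell and 0 rose (17% and 19.9% over all genes), with a median of -0.47. Their summed signal was 14961 to 16091 at 15 h, against 20120 to 22406 at 5 h and 17353 to 22957 in the controls. Of 14 tested astrocyte markers 8 rose and 1 fell, with a median of 0.69, or 0.39 after median centring and 0.41 with the ratios, and a summed signal of 41223 to 42210 at 15 h, against 24315 to 25040 at 5 h and 19242 to 20457 in the controls. Gja1, the gap junction protein of astrocytes, had 13.29, 13.37 and 13.20 at 15 h, against 12.05, 12.12 and 12.16 at 5 h (1.18 ± 0.12), and the receptor Ntsr2 and the lipid carriers Clu and Apoe rose by 1.59, 1.26 and 1.1. In bulk RNA, fewer cells of a type and less RNA per cell cannot be told apart. The part of these shifts in the falls of synaptic genes and the rises of lipid oxidation genes was not tested.

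Other glial and vascular markers were weaker or mixed. Of 11 tested progenitor markers 4 rose and 1 fell, or 7 and 1 with the 5-array block, with a summed signal of 19364 to 20428 at 15 h, against 11551 to 12596 at 5 h. Notch1, a receptor that keeps progenitors from differentiating, had 9.73, 9.61 and 9.33 at 15 h, against 7.91, 7.87 and 7.88 at 5 h (1.67 ± 0.13), and the endothelin receptor Ednrb and the stem cell protein Prom1 rose by 1.34 and 1.24. The fatty acid carrier Fabp7 fell (-1.36 ± 0.18). Of 9 tested microglia markers 5 rose and 0 fell at a median of 0.49, with a summed signal of 871 to 901 at 15 h, against 396 to 424 at 5 h and 513 to 584 in the controls. Laptm5, whose signals are given above, is among the 5 and makes up much of the 15 h sum. The doubled sum is therefore not a measure of the list as a whole. Lyz2, a lysozyme, and C1qc, a complement chain, rose by 0.95 and 0.76, and Cx3cr1, detected on none of the 5 h arrays, was at least 1.34-fold higher. Another 7 microglia markers, Csf1r, Tyrobp and Cd68 among them, had no tested probe. Of 10 oligodendrocyte markers 3 rose and 1 fell, against 1 and 3 after median centring and with the ratios. The 1 that fell was Mbp, a myelin protein (-0.31 ± 0.11). Its call was lost in 5 of the 6 fits that left out 1 array (-0.40 to -0.19). The calls of the rising Pdgfra (0.36 to 0.45) and Olig1 (0.33 to 0.41) were lost in some of those fits. Of 6 endothelial and mural markers 1 rose, and of 6 fibroblast markers 2 rose and 1 fell, the matrix protein Dcn (-1.87 ± 0.10). The call of Igf2, a fibroblast marker that rose, was lost in 5 of the 6 fits that left out 1 array (0.35 to 0.54). The 1 tested erythroid gene, Hba-a1, differed by -0.56 ± 0.17, a call lost with the 5-array block and when some single arrays were left out (-0.70 to -0.44).

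**Figure D5:**
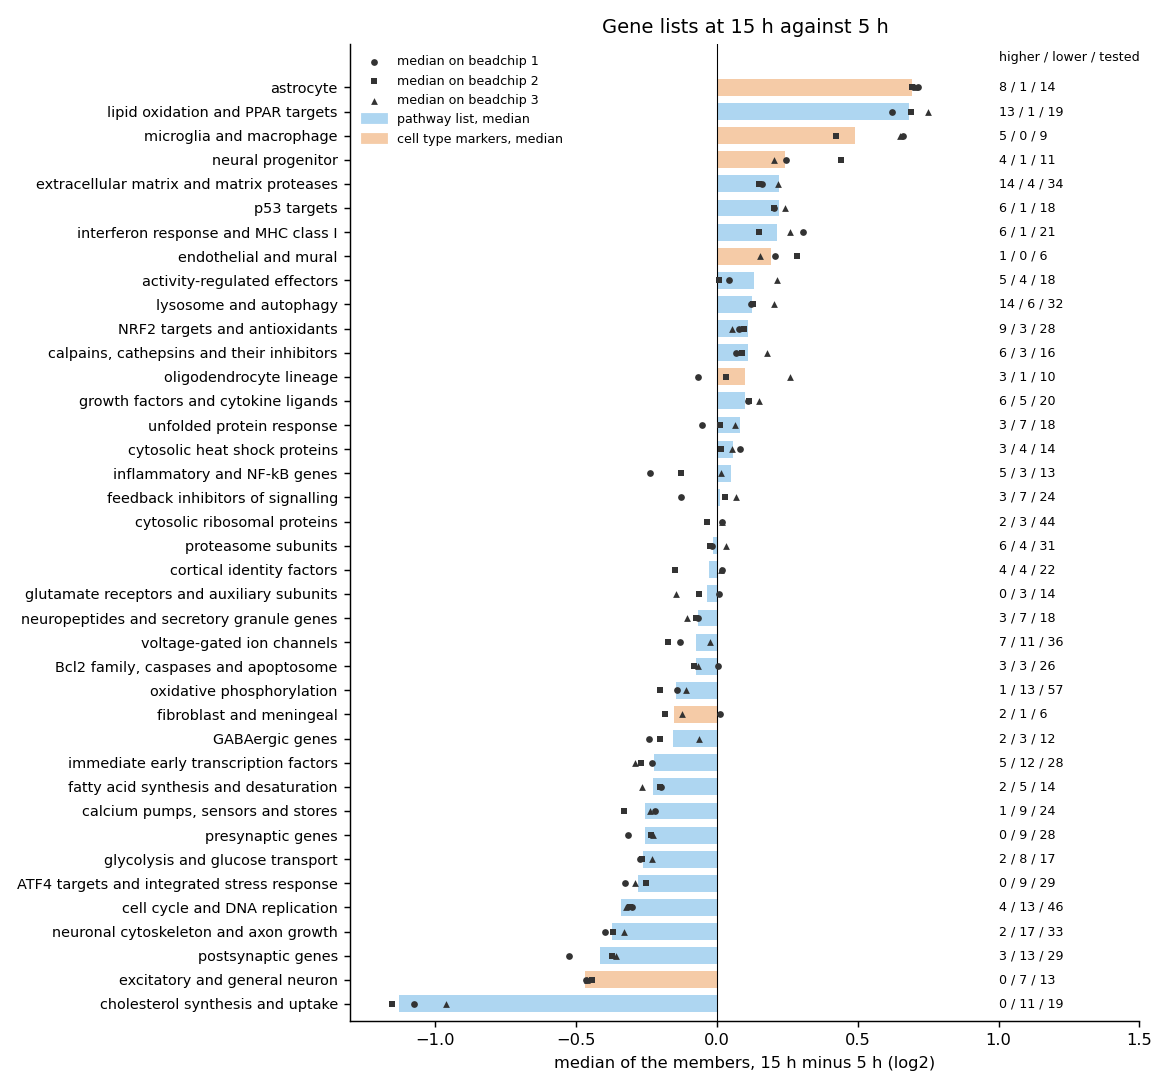
Bars give the median 15 h minus 5 h difference (log2) of each of the 39 lists with at least 5 tested genes, points give it on each of the 3 beadchips alone, and the numbers at the right give higher, lower and tested genes. Cholesterol synthesis lies lowest at -1.13, and astrocyte markers (0.69) and lipid oxidation (0.68) lie highest.

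Matrix, lysosome and immune genes rose in part, beside 19.9% of all genes higher and 17% lower. Of 34 tested matrix genes 14 rose and 4 fell, against 9 and 6 with the 5-array block, among the rises the lectin Lgals3 (1.67 ± 0.18), the gelatinase Mmp2 (1.11 ± 0.10) and the laminin chain Lamb2 (0.91 ± 0.13). Of 32 tested lysosome and autophagy genes 14 rose and 6 fell with a median of 0.13, against 6 and 9 and a median of -0.11 after median centring. Scarb2, a lysosomal receptor, and Wipi1, an autophagy protein, rose by 1.04 and 1.02, while the autophagy gene Gabarapl2 fell (-1.12 ± 0.15). Of 16 tested proteases and inhibitors of the calpain and cathepsin list 6 rose and 3 fell. Serpina3n, an inhibitor of serine proteases, had 8.62, 8.75 and 8.72 at 15 h, against 7.15, 7.20 and 7.13 at 5 h (1.54 ± 0.11). Of 13 tested inflammatory genes 5 rose and 3 fell, against 3 and 4 after median centring. They were led by Stat3, a cytokine-driven factor (1.43 ± 0.19, or 0.93 with the block). Of 21 tested interferon and MHC class I genes 6 rose and 1 fell, with a median of 0.21 that was 0.48 with the block. After median centring 4 rose and 1 fell, at a median of 0.10. Trim25, Rsad2 and Eif2ak2, all antiviral proteins, rose by 0.97, 0.83 and 0.80, and Trim25 by 1.53 with the block. Of 20 windows for this list 9 held the interferon-stimulated response element (45%), beside 2.88% of all.

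Of 28 tested antioxidant genes of the NRF2 factor 9 rose and 3 fell (19.9% and 17% over all genes), with a median of 0.11. After median centring 3 rose and 7 fell, with a median of -0.13. The glutathione transferase Gsta4 had 11.44, 11.45 and 11.46 at 15 h, against 10.18, 10.10 and 10.34 at 5 h (1.25 ± 0.10). Of 29 tested ATF4 and integrated stress genes 9 fell and 0 rose at a median of -0.28, whereas with the 5-array block 9 rose, 2 fell and the median was 0.36. Chac1, a glutathione-degrading enzyme, shows this turn: it had 9.91, 10.01 and 10.05 at 15 h, against 11.22, 11.19 and 11.33 at 5 h, but the difference of -1.25 ± 0.41 became 0.42 with the block (adjusted p = 0.01), and the call was lost in 5 of the 6 fits that left out 1 array (-1.40 to -1.09). Its controls spread by 0.85 (SD), with replicates 1 and 3 higher by 1.64. Ppp1r15a, which restarts translation after stress, fell in both fits (-1.0 ± 0.15 and -0.65). Of 18 tested unfolded protein response genes 7 fell and 3 rose, with Pdia6, a protein-folding enzyme, at -1.14 ± 0.14 and Hspa5, the chaperone BiP, at -0.77 ± 0.17, or -1.23 with the block. The ubiquitin ligase Syvn1 rose by 0.95 ± 0.09, and Herpud1 differed by -0.78 ± 0.20, or -0.04 with the block, and lost its call without 5 h replicate 3 (-0.64).

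Cytosolic heat shock genes (3 higher, 4 lower of 14 tested), p53 targets (6 higher, 1 lower of 18) and the Bcl2, caspase and apoptosome list (3 higher, 3 lower of 26) held calls in both directions, beside 19.9% higher and 17% lower over all genes. With the 5-array block they held 0 and 2, 5 and 2, and 5 and 4 higher and lower calls, and after median centring 2 and 5, 2 and 1, and 1 and 9. Casp6, an executioner caspase, rose by 0.95 ± 0.11, and the death genes Bid and Hrk fell by 0.50 and 0.53. The small chaperone Cryab rose by 0.60, a call lost with the 5-array block (0.36). Among p53 targets the polymerase Polk rose by 0.68 and the ubiquitin ligase Mdm2 by 0.46, and neither passed after median centring. The Polk call was also lost when some single arrays were left out (0.60 to 0.78).

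Of 46 tested cell cycle genes 13 fell and 4 rose at a median of -0.34, whereas with the block 14 rose and 5 fell at 0.08. E2f1, the factor that starts DNA replication genes, fell in both fits, with 7.76, 7.77 and 7.71 at 15 h, against 8.85, 8.85 and 8.72 at 5 h (-1.06 ± 0.08). Cdk1, the mitotic kinase, differed by -0.73 ± 0.26, or 0.26 with the block, and lost its call in each of the 6 fits that left out 1 array (-0.83 to -0.63). Cdk1 controls spread by 0.51 (SD), beside 0.07 at 15 h and 0.07 at 5 h. Aurkb, a mitotic kinase too, differed by -1.04, or -0.19 with the block. Of 57 tested oxidative phosphorylation genes 13 fell and 1 rose (17% and 19.9% over all genes), at a median of -0.14. With the block 2 fell and 2 rose at 0.08, and 28 fell after median centring. Cox7b, a subunit of the terminal oxidase, fell by 1.09, or 0.48 with the block. Of 44 cytosolic ribosomal protein genes 2 rose and 3 fell, against 9 and 3 with the block, 0 and 6 after median centring and 0 and 9 with the ratios. Of 31 proteasome genes 6 rose and 4 fell, against 3 and 0 with the block, 0 and 9 after median centring and 0 and 11 with the ratios. Of 22 cortical identity factors 4 rose and 4 fell, against 2 and 7 with the block and 2 and 6 after median centring. Sequences of ribosomal protein genes are close to those of their pseudogenes, so these values are uncertain. Cux1, a factor of upper cortical layers, fell by 0.98, although none of its 3 other probes passed, and Sox5, a factor of deep layers, rose by 0.60, or 0.38 with the block, with none of its 3 other probes passing. Further probes of Acss2, Casp6, Cebpd, Dlx2, Gabarapl2, Kcnab1, Neto1, Per2, Pfkp, Ppp3ca and Tmem214 did not pass either, and no gene named here had a further probe called in the opposite direction.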

How the data were processed

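RNA was measured on 15 MouseRef-8 bead arrays. The authors deposited an unnormalised signal intensity per target, exported with BeadStudio 3.2.3 per the file headers. Beside it the deposited profile gives a detection fraction, which is 1 minus the detection p-value against negative beads, per the file headers. A deposited normalised table holds ratios, and these values equal the signal over the array median and then over the control median of each target. The signals of the 2 intensity tables were equal within 0.05 units for 24607 targets. Another 72 columns, of 9 arrays that match no sample, were not used.

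Of the targets 24454 were matched to a probe identifier and 20854 had 1 gene symbol in the platform annotation. After leaving out 1 bright target with a detection p above 0, 24606 targets were background-corrected and quantile-normalised with limma's neqc (limma 3.58.1, R 4.3.3, offset 16), with negative controls inferred from the detection p. A probe was kept if 3 or more arrays detected it (detection p below 0.05). Group means and beadchip effects were fitted over all 15 arrays with lmFit and eBayes, and p-values were adjusted over the 14154 probes (Benjamini-Hochberg). Differences in the text are 15 h minus 5 h on the log2 scale with the SE of the fit, unless another comparison is named, and adjusted p-values are limma's. That SE pools the scatter of all groups, the controls included. A call lost without 1 array therefore need not mean that the 15 h or 5 h arrays disagree. Each gene is represented by its brightest tested probe.

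The beadchip comes from the column headers. Deviations from the group means correlated at 0.266, 0.0368 and 0.288 for 15 h and 5 h arrays of the same beadchip and at -0.277 to 0.003 for the others. Such deviations sum to 0 within a group, so part of this contrast is built in. With the beadchip as a random block over all arrays, the consensus correlation was 0.012. A probe passing at an adjusted p below 0.05 counts as called. In a simulation of this comparison on 14154 probes, 45 of 100 changes of 0.5 and 98 of 100 changes of 1 on the log2 scale were recovered, with 12 false calls. Its errors were independent between arrays, and far fewer probes were changed than the 34.2% called here. Recovery and false calls in the data can therefore differ from these numbers. Where a gene was not well above background on any array of a time, the fold is a lower bound taken against the lowest signal detected on each array.

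The genes, the 40 lists and the tests were chosen with earlier results of these data known. Genes named with values in the text were drawn from the 15 largest differences in each direction, up to 6 of each group of probes by course, up to 4 called members of each list, and all tested immediate early factors. Alternatives were other blocks and array sets, other normalisations and filters, a stricter threshold and leaving out single arrays. The number of arrays limits the precision. Promoter windows are RefSeq's for GRCm38.p6.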

Additional observations from a re-analysis of the deposited data

Results flagged for a closer look

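Among the 205 named genes, 9 had 1 vehicle control array far from the other 5, with a gap to its neighbour past Dixon's critical share of the whole range. Chance flags about 1 in 20 groups. Control replicate 1 stood apart for Egr2 at 5.85 (nearest 5.12), for Rnase1 at 4.55 (nearest 4.38) and for Crmp1 at 12.6 (nearest 12.7). Control replicate 3 stood high for Slc24a4 at 5.27 (nearest 4.70) and for Atf3 at 4.98 (nearest 4.47). Control replicate 5 stood high for Mmp2 at 5.96 (nearest 5.69) and low for Polk at 6.09 (nearest 6.69). Control replicate 4 stood high for Npas4 at 5.43 (nearest 5.33), and control replicate 6 low for Olig1 at 13.1 (nearest 13.2). All values are log2 signals, and the 15 h minus 5 h values of these genes do not use the control levels in the fit without the 5-array block.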

How the results depend on the processing

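Without the beadchip as a replicate block 2407 probes were higher and 2260 lower, and 4556 of the 4838 calls were made again in the same direction. On the 6 arrays alone 3650 were higher and 3540 lower. Without control replicates 1 and 3 506 probes kept falling. With the 5-array block 311 turned over from higher to lower, 278 from lower to higher and 188 kept falling. With median centring 1206 were higher, 1049 faded from a rise and 269 from a fall, 247 turned over from higher to lower and 21 from lower to higher, 585 started late upward and 211 kept rising. With the authors' ratios these counts were 1398, 1086, 361, 293, 38, 614 and 269. At an adjusted p below 0.01, 1553 were higher and 1451 lower, 365 faded from a rise and 451 from a fall, 44 and 41 turned over, 193 kept rising and 133 kept falling. Leaving out each 15 h or 5 h array gave 1794 to 2048 higher and 1688 to 1947 lower, 419 to 590 and 518 to 702 fading from a rise and a fall, 76 to 125 turning over from higher to lower and 73 to 118 from lower to higher. It gave 698 to 914 late upward, 745 to 941 late downward, 234 to 314 that kept rising and 162 to 228 that kept falling. Cdk1 (0.26) and Chac1 (0.42) changed sign with the 5-array block. So did the medians of neuropeptides (0.21), oxidative phosphorylation (0.080), unfolded protein response (-0.12), ATF4 targets (0.36), the Bcl2 list (0.012) and cell cycle (0.080). With median centring and with the ratios the medians of effectors (-0.047 and -0.021), unfolded protein response (-0.13 and -0.094), heat shock (-0.15 and -0.098), NRF2 targets (-0.13 and -0.090) and lysosome (-0.11 and -0.066) turned, and that of calpains turned with centring (-0.022). The unfolded protein response median was -0.0063 without 5 h replicate 2, up to 0.15 without other single arrays, and -0.053 on beadchip 1, where the Bcl2 list had 0.0045 and fibroblast markers 0.011. The heat shock median over all probes was -0.031. Of the 194 called genes named, 164 kept call and direction with the 5-array block, 178 with median centring and 181 with the ratios. All 194 kept both on the 6 arrays at 15 h and 5 h alone, and without control replicates 1 and 3. The cause of these changes was not tested.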
